A study of Mus musculus with 3 samples.

Results

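The carbonic anhydrases are a family of enzymes that interconvert carbon dioxide and bicarbonate. Their expression was described here for 10 genes in the choroid plexus epithelium (CPE) of the mouse: *Car2*, *Car3*, *Car4*, *Car5b*, *Car7*, *Car8*, *Car9*, *Car12*, *Car13* and *Car14*. These are 10 of 27845 gene names on the array. All probes that the array design named for them were taken, which gave 14 of 41174 probes. *Car3*, *Car5b*, *Car8* and *Car12* had 2 probes each and the other genes 1. Where a gene had 2 probes, the one farther along the strand of the gene is called the 3′ probe and the other the 5′ probe.

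CPE was laser dissected from frozen brain sections of 3 healthy, untreated adult mice of strain C57BL/6, listed as female in the study. Its RNA was amplified, labelled with the red dye Cy5 and hybridised to 1 two-colour Agilent array per mouse. The green dye Cy3 carried a common reference on each array, RNA of C57BL/6 choroid and retinal pigment epithelium (RPE). The reference was 1 RNA and the dyes were not swapped, so the spread of RPE/choroid between mice was not measured and a dye bias of a probe stays in its ratio.

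The CPE secretes cerebrospinal fluid, and bicarbonate is one of the ions it moves into the ventricle. Carbonic anhydrases supply bicarbonate and protons to the transporters of the epithelium, and inhibitors of these enzymes such as acetazolamide are known to slow the formation of the fluid. The isoforms differ in where they act: some in the cytosol, some in mitochondria, and some at the cell surface with the active site facing outward.

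The 4 promoters below are those of the isoforms of the cell surface. In the data that follow, this class holds probes higher in CPE than in the reference and probes that did not pass. The cytosolic class holds both kinds too, and its promoters are not shown. The promoters shown are from RefSeq on build GRCm38.p6 and are written on the strand of the gene. They run from 250 bases before to 50 bases after the start of the transcript. Capitals mark TAATCC, the core of the site bound by OTX homeodomain factors, and ACGTG, the core of the hypoxia response element, each searched on both strands, so that ACGTG on the opposite strand reads CACGT.

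Car4 promoter, chr11:84957504-84957803, plus strand: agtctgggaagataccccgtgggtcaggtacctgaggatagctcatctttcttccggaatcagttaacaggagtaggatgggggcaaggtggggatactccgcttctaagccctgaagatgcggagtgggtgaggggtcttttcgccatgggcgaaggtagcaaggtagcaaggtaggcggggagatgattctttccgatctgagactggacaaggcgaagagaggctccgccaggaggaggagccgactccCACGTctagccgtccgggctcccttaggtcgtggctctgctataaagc

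Car9 promoter, chr4:43506776-43507075, plus strand: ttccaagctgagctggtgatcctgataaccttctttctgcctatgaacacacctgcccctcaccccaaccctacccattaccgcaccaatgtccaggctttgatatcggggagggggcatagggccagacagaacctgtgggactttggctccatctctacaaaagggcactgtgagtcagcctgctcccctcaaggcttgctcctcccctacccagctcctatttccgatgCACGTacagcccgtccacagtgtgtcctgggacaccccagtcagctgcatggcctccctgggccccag

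Car12 promoter, chr9:66713436-66713735, plus strand: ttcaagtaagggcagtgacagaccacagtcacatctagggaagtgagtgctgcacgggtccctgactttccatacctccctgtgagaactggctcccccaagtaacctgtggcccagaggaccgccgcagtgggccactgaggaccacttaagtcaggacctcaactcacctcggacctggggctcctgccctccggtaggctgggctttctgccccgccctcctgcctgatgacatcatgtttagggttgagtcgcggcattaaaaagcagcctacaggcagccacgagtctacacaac

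Car14 promoter, chr3:95904636-95904935, minus strand: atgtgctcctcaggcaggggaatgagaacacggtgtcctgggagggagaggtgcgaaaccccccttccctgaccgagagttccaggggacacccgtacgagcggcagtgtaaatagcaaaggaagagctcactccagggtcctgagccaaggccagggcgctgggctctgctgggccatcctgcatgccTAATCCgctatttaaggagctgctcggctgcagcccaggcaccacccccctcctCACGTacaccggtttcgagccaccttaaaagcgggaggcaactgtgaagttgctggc

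TAATCC was found in 7.1% of the 32851 promoters of this length, and ACGTG, whose letters overlap the E-box CACGTG, in 19.6%. The *Car14* promoter held TAATCC at position −61 from the start and ACGTG, on the opposite strand, at position −7. The promoters of *Car9* and *Car4* held ACGTG on the opposite strand at positions −18 and 2, and neither motif was found in the window of *Car12*. Of the other 6 genes, *Car5b* and *Car7* had promoters in the table, and a promoter of *Car5b* held TAATCC at position −108. *Car2*, *Car3*, *Car8* and *Car13* were not in it. *Otx2*, the OTX factor typical of this epithelium, was at the 99.1th percentile of CPE expression, and its log2 ratio of CPE over reference was 0.14 (SE 0.22, n = 3, limma adjusted p = 0.658). A match of letters is a description of the sequence and does not show binding.

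Signal over background was not equal between arrays. In CPE 58.5%, 46.0% and 85.6% of probes were well above background in mice 1, 2 and 3, and the scanner software fitted a background surface of 81.2, 82.6 and 363. The dim carbonic anhydrase probes read highest on the array of mouse 3 in both channels. Each mouse has 1 array, so mouse and array cannot be told apart. Of 8 marker genes of the CPE, all were above the 90th percentile of expression and 6 were higher than in the reference, among them *Kl* at a log2 ratio of 5.42, *Prlr* at 4.38, *Kcne2* at 4.17 (limma adjusted p = 9.10e-06, 1.06e-05 and 7.85e-06) and *Ttr*, which was saturated in CPE in each mouse. *Otx2* and *Slc4a5* were the other markers, and their ratios were not past the threshold. Of 6 RPE markers 5 were lower in CPE, and all 6 photoreceptor markers were lower.

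Expression was ranked over all probes as a percentile of the mean CPE level, and called high above 90, moderate from 50 to 90, low from 10 to 50 and very low below 10. The probes of *Car2* and *Car14* and the 3′ probe of *Car12* were in the high class in each of the 3 mice. Thus 3 of 14 carbonic anhydrase probes were high, in a class that by its definition holds 10% of all probes. Another 9 were moderate, 2 were low and 0 were very low. The percentile places a probe on the array and does not order transcripts of different genes by abundance. On all 3 arrays 12 of the 14 probes were well above background in CPE (44.9% of all probes) and 13 were in the reference. Of all 41174 probes, 29240, 28257 and 34651 were well above background in the reference on the arrays of mice 1, 2 and 3. The share on all 3 arrays together is not given for the reference. None of the 14 was saturated.

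**Figure D1:**
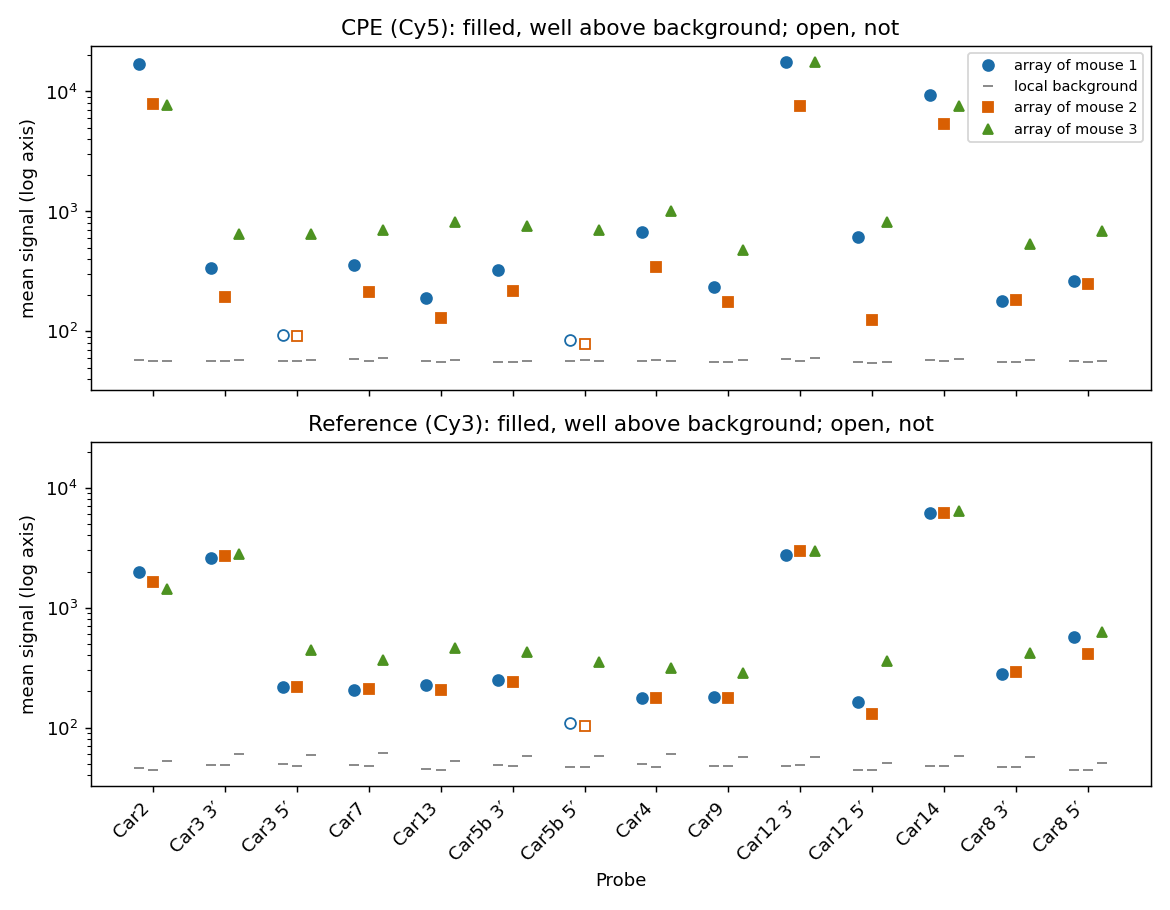
Mean signal of each of the 14 carbonic anhydrase probes in the CPE channel (top) and the reference channel (bottom), on a log axis in scanner units, with 1 point per array and a dash for the local background. Open points were not well above background. The probes of *Car2* and *Car14* and the 3′ probe of *Car12* read 5350 or more in CPE on all arrays, and the other probes were brightest on the array of mouse 3 in both channels.

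The ratio of CPE over reference was tested for 13 of the 14 probes with limma, in a fit over 25844 probes whose signal was well above background in CPE or in the reference on every array. The threshold was 2-fold with an adjusted p below 0.05. Signals of the channels are quoted below as read, before loess set the dyes on a common scale. Their order and overlap are a description, and only the ratio was tested. Higher in CPE were *Car2*, *Car4* and the 3′ probe of *Car12*, which is 3 of 13 against a background of 7.09% of all tested probes. Lower in CPE were the 3′ probe of *Car3* and the 5′ probe of *Car8*, which is 2 of 13 against 10.2%. In either direction 17.3% of all tested probes passed. The median log2 ratio was 0.12 over the 13 probes and −0.040 over all tested probes. The other 8 tested probes did not pass. With no minimum fold, 9 of the 13 had an adjusted p below 0.05, against 39.2% of all tested probes. RNA was measured from dissected tissue, so fewer cells of a type and less RNA per cell cannot be told apart.

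**Figure D2:**
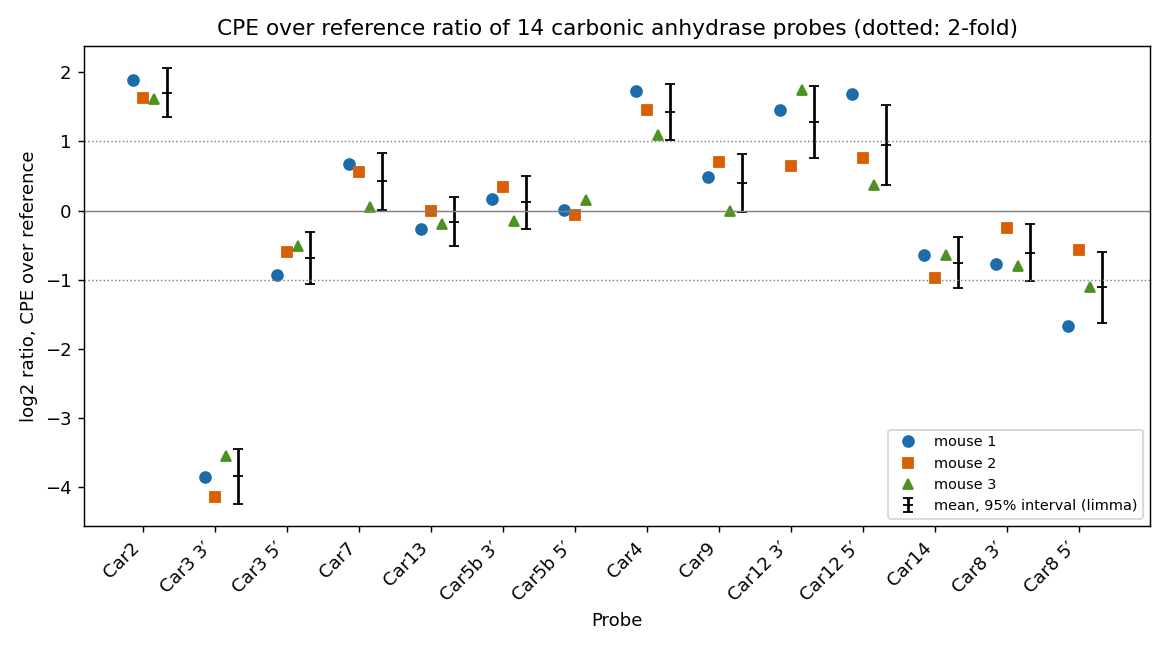
Log2 ratio of CPE over reference for the 14 probes, with 1 point per mouse, the mean and its 95% interval from limma (none for the 5′ probe of *Car5b*, which was not tested), and dotted lines at 2-fold. *Car2*, *Car4* and the 3′ probe of *Car12* lie above 0 in all mice and the 3′ probe of *Car3* lies between −4.14 and −3.55, while *Car14* lies below 0 here and close to 0, at 0.059, when arrays are centred on their median.

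*Car2* encodes the fast cytosolic isoform, CA II. Its probe (chr3:14876950-14877009, mm8, plus strand) gave a CPE signal of 16886, 7929 and 7659 in mice 1, 2 and 3. The reference signal on the same arrays was 1986, 1631 and 1428. CPE read higher than the reference on every array, and the channels as read did not overlap. The log2 ratio was 1.88, 1.63 and 1.61, with a mean of 1.71 (SE 0.15, 95% interval 1.35 to 2.07, n = 3, limma adjusted p = 0.000173), which is 3.26-fold higher in CPE. The CPE percentile was 98.4 and that of the reference 93.3. *Car2* was therefore bright in both tissues and brighter in CPE in each mouse.

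*Car2* is also known from oligodendrocytes and red blood cells. Of 4 tested oligodendrocyte markers 1 was higher in CPE, *Cnp*, a myelin enzyme, at 1.24 (limma adjusted p = 0.00250), and none was lower. The brightest probe of *Mbp*, a myelin protein, gave −0.05 (limma adjusted p = 0.835), and its 3 probes ran up to 1.72. *Mobp* gave 0.56 and *Mag* 0.71 (limma adjusted p = 0.0267 and 0.0556), and neither passed. The median log2 ratio over the 4 tested markers was 0.63. The number higher was 2 without mouse 3. The summed signal above background of the 5 markers was 2716 to 5520.4 in CPE and 1698 to 2473 in the reference. *Mog*, one of the defining markers, was well above background in CPE on 2 of the 3 arrays. All 3 red cell markers, *Hba-a1*, *Hbb-b1* and *Alas2*, were lower in CPE, with a summed signal of 26340 to 54967 against at least 95385 to 102993, since *Hbb-b1* was saturated on 2 arrays in the reference, and 1 of them passed with arrays centred on their median. The part of oligodendrocyte RNA in the *Car2* ratio was not tested.

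*Car3* encodes a cytosolic isoform of low activity, abundant in muscle and fat. Its 3′ probe (chr3:14848525-14848584, mm8, plus strand) read 338, 194 and 643 in CPE. In the reference it read 2598, 2715 and 2795. The reference read higher on all 3 arrays with no overlap. Its log2 ratio was −3.86, −4.14 and −3.55, with a mean of −3.85 (SE 0.17, 95% interval −4.25 to −3.45, n = 3, limma adjusted p = 1.00e-05), which is 14.4-fold lower in CPE. It was the largest difference from the reference among the 14 probes.

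The 5′ probe of *Car3* (chr3:14841475-14841534, mm8), which lies 7050 bases away and was assigned in the array design to a cDNA clone, gave a smaller ratio. Its CPE signal of 92.6, 91.5 and 651 was well above background on 1 array, that of mouse 3. In the reference it read 219, 218 and 440. The log2 ratio was −0.69 (SE 0.16, n = 3, limma adjusted p = 0.0130), below the 2-fold threshold, and with the scanner log ratio it was −1.96 (limma adjusted p = 0.0365) and passed. Its CPE signal was 1.62 and 1.60 times the local background in mice 1 and 2. In mouse 3 the local background was 58, while the background surface fitted on that array was 363. The size of this ratio is therefore not well measured. The direction was the same as that of the 3′ probe in each mouse.

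Of 5 tested muscle and fat markers 4 were lower in CPE, led by *Myh4*, a fast muscle myosin, at −3.10 (limma adjusted p = 0.000149), *Acta1* at −2.37 (limma adjusted p = 0.000812), *Fabp4* at −2.13 (limma adjusted p = 0.000162) and *Ckm* at −2.01 (limma adjusted p = 0.000777). Their summed signal, over 6 genes, was 720 to 5137 in CPE and 5090 to 6065 in the reference. *Adipoq* had a log2 ratio of −0.27 (limma adjusted p = 0.270) and *Plin1* was not tested. Each was well above background in CPE on 1 array. The part of muscle and fat RNA in the reference in the *Car3* ratio was not tested.

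*Car7*, a cytosolic isoform known from neurons, and *Car13*, a cytosolic isoform found in several tissues, were both moderate. The *Car7* probe (chr8:107438126-107438185, mm8) read 360, 213 and 695 in CPE and 205, 212 and 365 in the reference. Its log2 ratio was 0.67, 0.55 and 0.06, with a mean of 0.43 (95% interval 0.01 to 0.84, n = 3, limma adjusted p = 0.0941). The channels overlapped, and mouse 3 lay closest to 0. The *Car13* probe (chr3:14638331-14638390, mm8) read 190, 129 and 818 in CPE and 225, 205 and 464 in the reference. Its log2 ratio of −0.16 had an interval of −0.52 to 0.19 (n = 3, limma adjusted p = 0.441). Neither gene passed, and the interval of *Car7* runs up to a log2 ratio of 0.84.

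*Car5b* encodes a mitochondrial isoform and lies on the X chromosome. Its 3′ probe (chrX:159323258-159323317, mm8, minus strand) read 325, 218 and 750 in CPE and 248, 238 and 423 in the reference. The log2 ratio of 0.17, 0.34 and −0.15 did not have the same sign in all mice, with a mean of 0.12 (95% interval −0.27 to 0.50, n = 3, limma adjusted p = 0.611). The 5′ probe, 33151 bases away, read 84.3, 78.9 and 704 in CPE and 108, 103 and 353 in the reference. It was well above background on 1 array in each channel, that of mouse 3, and was not tested. Its CPE percentile was 12.3 and 10.8 in mice 1 and 2 and 50.4 in mouse 3.

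Among the isoforms of the cell surface, *Car12* and *Car4* were higher in CPE than in the reference and *Car14* was not. *Car12* encodes a transmembrane isoform. Its 3′ probe (chr9:66565373-66565432, mm8, plus strand) read 17636, 7611 and 17758 in CPE and 2727, 2942 and 2937 in the reference. CPE read higher in each mouse with no overlap, and mouse 2 read lowest. Over the reference this gave a log2 ratio of 1.46, 0.65 and 1.75, with a mean of 1.29 (SE 0.22, 95% interval 0.76 to 1.81, n = 3, limma adjusted p = 0.00362), which is 2.44-fold higher. At the 98.9th percentile it had the highest rank of the 14 probes in CPE, and the reference was at the 96.6th.

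The 5′ probe of *Car12* was moderate, at the 67.1th percentile. The coordinates of this probe on mm8 start at 66552947 and end at 66562401 on chromosome 9, a span of 9455 bases, while the other 13 probes span 60. It read 614, 124 and 822 in CPE and 165, 131 and 356 in the reference, and the channels overlapped. Its log2 ratio was 1.68, 0.77 and 0.37, with a mean of 0.94 (SE 0.25, 95% interval 0.36 to 1.52, n = 3, limma adjusted p = 0.0202), below the 2-fold threshold. It passed without mouse 2, at 1.03 (limma adjusted p = 0.0134), and without mouse 3, at 1.23 (limma adjusted p = 0.0135). The probes of *Car12* differed by at most 0.22 in mice 1 and 2. In mouse 3 the 5′ probe lay 1.37 below the 3′ probe.

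*Car4* encodes an isoform held at the outer membrane face by a lipid anchor. Its probe (chr11:84781003-84781062, mm8, plus strand) read 675, 342 and 1000.4 in CPE and 176, 177 and 315 in the reference. CPE read higher in every mouse, and the channels as read did not overlap. The log2 ratio was 1.72, 1.46 and 1.10, with a mean of 1.43 (SE 0.17, 95% interval 1.02 to 1.83, n = 3, limma adjusted p = 0.000717), which is 2.69-fold higher. CPE expression was moderate, at the 75.1th percentile, and the reference was at the 40.4th.

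*Car4* is also a known product of capillary endothelium. Of 6 endothelial markers 1 was higher in CPE, *Tie1*, a receptor of endothelial cells, at 1.21 (limma adjusted p = 0.00240), and none was lower. The number higher was 2 without mouse 2, 3 without mouse 3 and 3 with arrays centred on their median. The other 5 did not pass: *Pecam1* gave 0.95, *Cdh5* 0.94, *Emcn* 0.38, *Flt1* −0.11 and *Kdr* −0.19 (limma adjusted p = 0.0435, 0.0140, 0.0839, 0.711 and 0.405). Over all probes of the gene the mean ratio ran from −0.13 to 0.95 for *Pecam1* and from 0.69 to 0.94 for *Cdh5*. It ran from −0.23 to 0.34 for *Flt1* and from −0.19 to 0.19 for *Kdr*. The 6 markers were all well above background in CPE on each array. In the high class were 3 of them, *Kdr*, *Emcn* and *Flt1*, at the 97.1th, 96.2th and 96.0th percentile. *Cdh5*, *Tie1* and *Pecam1* were moderate, at the 81.4th, 73.1th and 68.4th. The summed signal of the 6 markers was 11141 to 21541 in CPE and 8234 to 9475 in the reference. Laser dissection was meant to leave out the vascular stroma, and the part of endothelial RNA in the *Car4* ratio was not tested.

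*Car14* encodes another transmembrane isoform, known from the RPE. Its probe (chr3:95983341-95983400, mm8, minus strand) read 9347, 5350 and 7617 in CPE and 6136, 6175 and 6340 in the reference. The channels overlapped. The log2 ratio was −0.64, −0.98 and −0.65, with a mean of −0.76 (SE 0.16, 95% interval −1.13 to −0.39, n = 3, limma adjusted p = 0.00795), under the 2-fold threshold, and with arrays centred on their median it turned to 0.059 (limma adjusted p = 0.922). *Car14* ranked at the 97.6th percentile in CPE and the 98.7th in the reference. It was thus high in both tissues. Its ratio kept its direction in 9 of 10 alternatives and was close to 0 with median centring. Only median centring and the scanner log ratio replaced loess, and the scanner log ratio gave −0.75 (limma adjusted p = 0.0508).

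*Car9*, a transmembrane isoform that is a textbook target of the hypoxia response, was moderate at the 57.7th percentile. Its probe (chr4:43534251-43534310, mm8, plus strand) read 234, 177 and 477 in CPE and 179, 178 and 284 in the reference, and the channels overlapped. The log2 ratio of 0.49, 0.70 and 0.00 had a mean of 0.40 (95% interval −0.03 to 0.82, n = 3, limma adjusted p = 0.125). *Car9* did not pass.

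*Car8* encodes a protein of the family that has lost the catalytic activity and is known from Purkinje cells. The 5′ probe (chr4:8072704-8072763, mm8, minus strand) read 264, 249 and 689 in CPE and 567, 411 and 622 in the reference, and the channels overlapped. In the 3 mice the log2 ratio was −1.67, −0.57 and −1.10, with a mean of −1.11 (SE 0.22, 95% interval −1.63 to −0.60, n = 3, limma adjusted p = 0.00620), which is 2.16-fold lower. Without mouse 1 it was −0.84 (limma adjusted p = 0.0432), without background correction −0.97 and with arrays centred on their median −0.78, and it did not pass in these settings. The 3′ probe, 2159 bases away, gave −0.77, −0.25 and −0.81, with a mean of −0.61 (SE 0.17, n = 3, limma adjusted p = 0.0274). The probes of *Car8* were both below 0 in every mouse.

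Of 6 neuronal markers 3 were lower in CPE, *Nefl* at −4.71 (limma adjusted p = 9.10e-06), *Snap25* at −3.72 (limma adjusted p = 2.54e-05) and *Syt1* at −3.56 (limma adjusted p = 9.11e-05), and none was higher. Their summed signal, over 6 genes, was 1401 to 4810 in CPE and 12338 to 13953 in the reference. *Pvalb* was well above background in CPE on 1 array and the other 5 on all 3. The part of neuronal RNA in the reference in the *Car8* ratio was not tested.

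Ordered by the mean log2 ratio, the 13 tested probes ran from *Car2* to *Car4*, both probes of *Car12*, *Car7*, *Car9*, the 3′ probe of *Car5b*, *Car13*, the 3′ probe of *Car8*, the 5′ probe of *Car3*, *Car14*, the 5′ probe of *Car8* and the 3′ probe of *Car3*. Each probe overlapped its neighbour in the range over mice, with 1 exception. The 3′ probe of *Car3* lay 2.19, 3.57 and 2.45 below the 5′ probe of *Car8*. Within a mouse, the log2 ratio of *Car2* exceeded that of *Car14* by 2.53, 2.60 and 2.26. The ratio of the 3′ probe of *Car12* exceeded that of *Car14* by 2.11, 1.63 and 2.39, and the ratio of *Car4* exceeded it by 2.37, 2.44 and 1.74. *Car2* and *Car12* had no fixed order, with differences of 0.42, 0.98 and −0.14. With 3 mice these differences are given as values with no test.

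**Figure D3:**
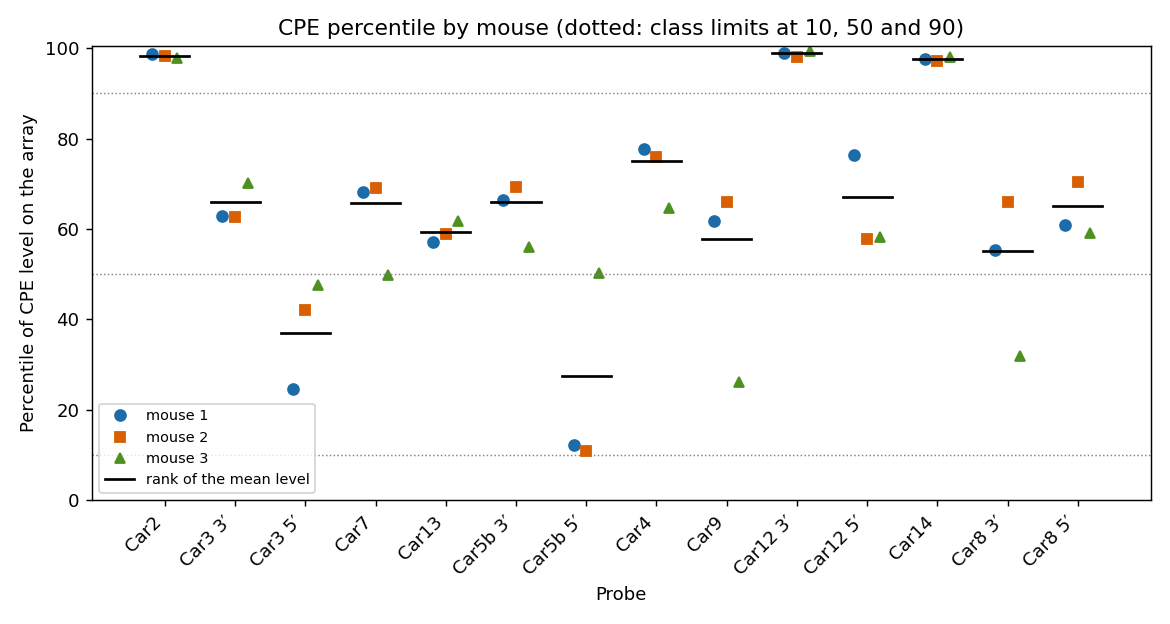
Percentile of the CPE level of each of the 14 probes among all probes of the array, with 1 point per mouse, a bar for the rank of the mean level, and dotted lines at the class limits of 10, 50 and 90. *Car2*, *Car14* and the 3′ probe of *Car12* stay between 97.2 and 99.3 in all mice, while *Car9* and the 3′ probe of *Car8* are moderate in mice 1 and 2 and low in mouse 3.

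Percentiles of the high probes hardly moved between mice: those of *Car2* were 98.8, 98.3 and 97.8, and those of *Car14* 97.6, 97.2 and 97.9. Moderate probes moved more. *Car9* was at 61.8, 65.9 and 26.0, the 3′ probe of *Car8* at 55.3, 65.9 and 31.9, and *Car7* at 68.3, 69.0 and 49.8. These 3 were low in mouse 3, on the array with the brighter background surface, whose part in this was not tested. Ranks near the top have little room to move, so percentiles do not compare the spread of levels. After Aquantile the SD of the log2 CPE level was 0.49 for *Car2*, 0.63 for the 3′ probe of *Car12* and 0.29 for *Car14*. It was 0.30 for *Car9*, 0.30 for *Car7* and 0.20 for the 3′ probe of *Car8*. When only probes well above background in CPE were ranked, the 9 moderate probes moved to low or very low, *Car4* to the 44.6th percentile and the 3′ probe of *Car8* to 8.01, and the high probes stayed high.

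The SD over the 3 mice in the CPE channel was set beside the SD of the reference over the 3 arrays. Aquantile scales the mean of both channels, so the CPE signal enters the reference level. The reference SD therefore does not hold technical error alone. For *Car9* the reference signal was highest on the array of mouse 3, at 284, and its level after Aquantile was lowest there, at 6.95. On the log2 scale after Aquantile, *Car2* had an SD of 0.49 in CPE and 0.17 in the reference. The 3′ probe of *Car12* had 0.63 and 0.23 and its 5′ probe 0.90 and 0.24, while *Car14* had 0.29 and 0.18. *Car4* went the other way, at 0.40 and 0.48. Of the 12 probes measured in both channels on all arrays, 6 had the larger SD in CPE, against 47.4% of 17950 probes. That count was 12 with each channel centred on its median, where 93.9% of all these probes had the larger SD in CPE. It was 10 after quantile normalization, where 78.8% had. The count moved with the scaling, as the share of all probes did.

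The array held 6 other carbonic anhydrases, of which 4 were tested, with 1 higher and 1 lower in CPE. *Car10*, a family member without catalytic activity, gave a log2 ratio of 1.35, 1.95 and 1.46, with a mean of 1.59 (SE 0.18, n = 3, limma adjusted p = 0.000453), and was high at the 94.9th percentile. Another *Car10* probe gave −0.19. *Car6*, the secreted isoform of saliva, was lower in all mice at −2.59, −2.49 and −2.20, with a mean of −2.43 (SE 0.16, n = 3, limma adjusted p = 4.24e-05). *Car15*, a membrane isoform, gave 0.96 (limma adjusted p = 0.00996), under 2-fold, and passed without mouse 3. *Car11*, also without catalytic activity, gave 0.07 (limma adjusted p = 0.733), and *Car1* and *Car5a* were not tested.

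The transporters of bicarbonate and protons that work with these enzymes made up a list of 20 genes, of which 19 were on the array and 16 were tested. Higher in CPE were 2 and lower were 4, against 7.09% and 10.2% of all tested probes, and 10 did not pass. With arrays centred on their median 3 were lower. The median log2 ratio of the list was −0.073. *Slc4a10*, the sodium-dependent bicarbonate carrier of the basolateral membrane, gave 4.18 (SE 0.15, n = 3, limma adjusted p = 6.57e-06). *Slc4a2*, the anion exchanger of the same membrane, gave 2.89 (SE 0.16, n = 3, limma adjusted p = 2.02e-05). Both were in the high class, as was *Slc4a5*, the apical sodium bicarbonate cotransporter, whose log2 ratio was −0.09 (limma adjusted p = 0.754) and whose other probe gave 1.04.

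Among the transporters that were lower, *Slc26a4*, the anion exchanger pendrin, gave −3.96 (limma adjusted p = 1.06e-05). *Slc4a4*, a sodium bicarbonate cotransporter of the RPE and kidney, gave −2.56 (limma adjusted p = 3.17e-05). *Slc26a7* gave −1.82 (limma adjusted p = 0.000283) and *Slc4a7*, which cotransports sodium and bicarbonate, gave −1.41 (limma adjusted p = 0.000639). These values are for 1 probe per gene, the brightest, and probes of a gene differed. Over all probes of the gene the mean ratio ran from −2.56 to −0.97 for *Slc4a4*, from −1.82 to −0.56 for *Slc26a7*, from −2.28 to −0.10 for *Slc4a7* and from 1.06 to 4.18 for *Slc4a10*.

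**Figure D4:**
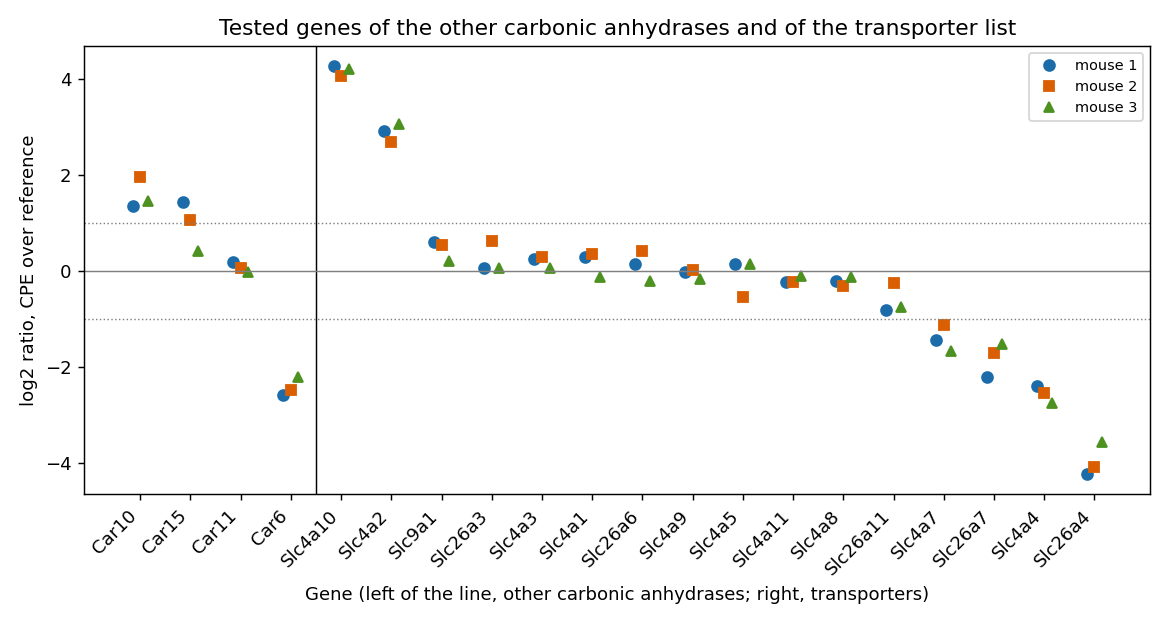
Log2 ratio of CPE over reference in each mouse for the 4 tested other carbonic anhydrases (left of the vertical line) and the 16 tested transporters (right), with dotted lines at 2-fold. *Slc4a10* and *Slc4a2* stand at 2.68 or more in all mice, *Slc26a4* and *Slc4a4* stand at −2.39 or less, and most of the others lie between the dotted lines.

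The direction and call of *Car2*, *Car4*, the 3′ probe of *Car12* and the 3′ probe of *Car3* held with each mouse left out and in each processing alternative. The size moved with the normalization. With arrays centred on their median in place of loess, *Car2* was at 2.48, the 3′ probe of *Car12* at 2.08, *Car4* at 1.67 and the 3′ probe of *Car3* at −3.32. The scanner log ratio gave 2.44 for *Car4*. Centring moved the median over all tested probes from −0.040 to 0.092, and the share of higher probes among those past the threshold from 41.1% to 67.0%.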

How the data were processed

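Scanner tables of 3 two-colour arrays were deposited by the authors, who made them with Agilent Feature Extraction 9.5.3.1. They hold the linear intensity of each spot and its background in both channels, flags, and a log10 ratio of red over green, in which the software took account of background and dye. A deposited table of log2 levels, normalized between arrays by the authors with Aquantile in R 2.14.0, ranked probes as the corrected CPE intensity did (rank correlation 0.998, 0.998 and 0.999), had medians of 6.86, 6.82 and 6.85, and was an alternative. Probe coordinates are on mm8. An annotation of that build was not used here, and no exons are named.

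Ratios were computed with limma 3.58.1 in R 4.3.3, after normexp background correction (offset 50) of mean intensities and loess within arrays. Control spots and outliers were dropped, and repeat spots of a probe were averaged. The model had an intercept alone, the mean log2 ratio was tested against 0, and p-values were adjusted by Benjamini-Hochberg over 25844 probes. The script was tested on simulated data. Classes followed the study's methods (log2 mean red intensity, Aquantile, mean over mice, rank over 41174 probes). Of the 14 carbonic anhydrase probes 12 had an accession in RefSeq, all 12 under the same symbol. Each listed gene was read from its brightest probe, and *Slc4a5* was found through an older symbol. Other probes of a marker could differ from the brightest. The mean ratio ran from 1.88 to 5.42 for *Kl*, from −3.56 to −0.30 for *Syt1* and from −3.10 to −1.70 for *Myh4*. Summed signals are mean signal minus local background, added over a list.

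All 10 genes were named with every probe, and so was every other carbonic anhydrase. Of the other lists, the genes past the threshold with the largest change in each direction were named, at most 4 per list, except that the RPE and photoreceptor lists are given as counts. *Otx2*, *Slc4a5*, *Mog*, *Adipoq*, *Plin1*, *Mbp*, *Mobp*, *Mag*, *Pecam1*, *Cdh5*, *Emcn*, *Flt1*, *Kdr* and *Pvalb* were named outside that rule. The genes and lists were chosen with earlier results of these data known. A marker gene first listed is not reported here. The number of arrays, 3, limits the precision. Alternatives concerned background correction, normalization, starting values, the filter, array weights and each mouse left out.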

Additional observations from a re-analysis of the deposited data

How the results depend on the processing

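Each CPE sample was set against the reference on its own array, and the test of the mean log2 ratio kept this pairing. The samples form 1 group, so there was no pairing of samples across groups. Of 13 tested carbonic anhydrase probes, 5 passed, 3 higher and 2 lower. The number lower was 1 without background correction, 1 with median centring and 1 to 2 with a mouse left out, where the 5′ probe of *Car8* was under 2-fold: −0.97 (limma adjusted p = 0.0182), −0.78 (limma adjusted p = 0.0780) and, without mouse 1, −0.84 (limma adjusted p = 0.0432). With a mouse left out, 4 to 6 passed and 3 to 4 were higher. At any fold, a threshold chosen after seeing the data, 9 of 13 passed and 5 were lower, against 39.2% of all tested probes. *Car14* turned to 0.059 with median centring (limma adjusted p = 0.922); the cause was not tested. The 5′ probe of *Car12* passed with array weights, at 1.21, and without mouse 2 or mouse 3. The 5′ probe of *Car3* passed with the scanner log ratio, at −1.96 (limma adjusted p = 0.0365). The number of probes with the larger SD in CPE was 6 after Aquantile, 12 with median centring of each channel and 10 after quantile normalization, beside 47.4%, 93.9% and 78.8% of all probes measured in both channels. The 3 high probes were high in all 8 alternatives, the deposited table included. Over all tested probes, 4462 passed, 5588 with median centring, 6755 with the scanner log ratio and 10127 at any fold. The offset of 50 draws ratios of dim probes toward 0, so that fold changes of probes near background are understated.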
